A study of Homo sapiens with 6 samples.

Results

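The 36 genes described here encode glycoproteins of the extracellular matrix and the basement membrane, and were followed in RNA-seq of 6 libraries of DLD1, a human colorectal cancer cell line. They were taken by gene symbol from the 58884 genes of the deposited table, from a list drawn up with results of the same contrast already known, so that their differences between the conditions are given as descriptions and carry no test. The list holds 10 laminin chains, 4 basement membrane linkers and heparan sulfate proteoglycans, fibronectin and versican, 14 microfibril and elastic fibre proteins and 6 matricellular proteins. The 3 parental libraries came from unedited DLD1 cells. The 3 mutant libraries came from DLD1 cells carrying K477A and R478A in p85β (p85β KR-AA), a regulatory subunit of PI3K encoded by PIK3R2, with the change knocked into the endogenous gene at its nuclear localization sequence. Both conditions share the helical domain mutation of PIK3CA that DLD1 carries. The labels do not say which mutant clone was sequenced or whether the libraries are separate cultures, so that genotype and clone cannot be told apart and the spread between libraries may be technical.

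Basement membranes are thin sheets under epithelia. Laminins, trimers of an alpha, a beta and a gamma chain, self-assemble into a network at the cell surface, and nidogens and perlecan bridge it to the type IV collagen network. Fibronectin and the fibrillins instead build fibres of the interstitial matrix. Fibrillin microfibrils carry elastin, fibulins, EMILINs and the latent TGF-β binding proteins, while matricellular proteins such as tenascin and the thrombospondins modulate adhesion rather than form a scaffold. In the colon the epithelium itself makes several laminin chains, whereas most fibronectin, fibrillin and nidogen is made by stromal fibroblasts.

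Total estimated counts lay between 20301932 and 20873475 in the parental and between 20301396 and 26712816 in the mutant libraries. Values are counts scaled to TMM-adjusted library size (CPM) unless stated otherwise, and 3 counts, the floor used here, correspond to 0.185 to 0.218 CPM in parental and 0.0818 to 0.109 CPM in mutant libraries. The conditions differed across the whole transcriptome. Of 16059 genes tested, 28.6% were up-regulated and 17.6% down-regulated in the mutant cells, with an adjusted p under 0.01 in edgeR's quasi-likelihood test and a difference of 3-fold or more. The difference moved with gene length, since 50.9% of the genes over 4000 bases but 18.7% of the shorter ones were up-regulated, with median log2 fold changes of 1.65 and -0.26. The median length was 6547 bases for the members against 2796 for all genes tested, and the part of length in the members' values was not tested.

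The marker genes moved as well. Of 14 colon epithelial markers, 12 were over 1 CPM in every parental library and 11 in every mutant library, with CDX1 at or near 0 in both. Of the 13 tested, 3 were up-regulated and 6 down-regulated, against 28.6% and 17.6% of all genes tested. The sum of the 14 lay between 57260 and 79290 CPM in parental and between 8848 and 10350 CPM in mutant libraries. The keratins KRT8, KRT18 and KRT19 carry nearly all of that sum, at 37380, 18440 and 11440 CPM in parental and 4454, 2537 and 1739 CPM in mutant libraries. The 3 up-regulated markers were CDH1 (97.3 to 344 CPM), CDH17 (6.60 to 28.5 CPM) and CEACAM5 (0.398 to 20.5 CPM). Of the 11 tested fibroblast or mesenchymal markers, 7 were up-regulated and 0 down-regulated, against the same 28.6% and 17.6%. The sum of all 16 listed went from 119.6 to 138.4 CPM to 1938 to 2067 CPM. VIM, the mesenchymal filament vimentin, accounts for most of it, with 9, 13 and 14 counts in the parental and 67013, 48628 and 49227 in the mutant libraries. The fibroblast genes COL1A2, PDGFRA, THY1 and FAP were at or near 0 in all 6 libraries, and TWIST1 was at 0 in the mutant libraries. In contrast, COL3A1, DCN, LUM, ZEB1 and ZEB2 had no parental count and stood at means of 3.74, 3.42, 5.62, 1.32 and 15.6 CPM in the mutant libraries. Endothelial (1 up, 2 down of 4 tested) and smooth muscle markers (1 up, 2 down of 4 tested) summed to at most 15.1 and 22.4 CPM. Nothing is read from these small counts against the 28.6% and 17.6% of all genes. The part of cell state or of other cells in the values below was not tested, and in bulk RNA fewer cells of a type and less RNA per cell cannot be told apart.

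Of the 36 members, 31 passed the filter on low counts. Against the 28.6% and 17.6% of all genes, 17 of the 31 met the thresholds in the upward direction and 2 (EMILIN1 and MFAP2) in the downward direction. Nothing about the members is read from these counts, as the contrast had been seen when they were listed. All 3 mutant libraries lay above all 3 parental libraries for 20 of the 31 members, against 47% of all genes tested, and below them for 9, against 36.5%, while LAMA4 and FBLN5 overlapped. The median log2 fold change was 1.86 for the members and 0.32 for all genes tested. The members took 0.160% ± 0.034 (SD, n = 3) of all counts in parental and 1.46% ± 0.063 in mutant libraries. Such a share does not use the TMM scaling but amounts to scaling by library totals, and so depends on the other genes in the library. With TMM scaling the members' sum lay between 1838 and 2635 CPM in parental and between 9971 and 11300 CPM in mutant libraries. FN1 alone went from 0.000313% ± 6.2e-05 to 0.687% ± 0.0426, and the other 35 from 0.159% ± 0.0335 to 0.773% ± 0.0206. The levels by library show the range, from genes without parental counts to genes that hardly moved.

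**Figure D1:**
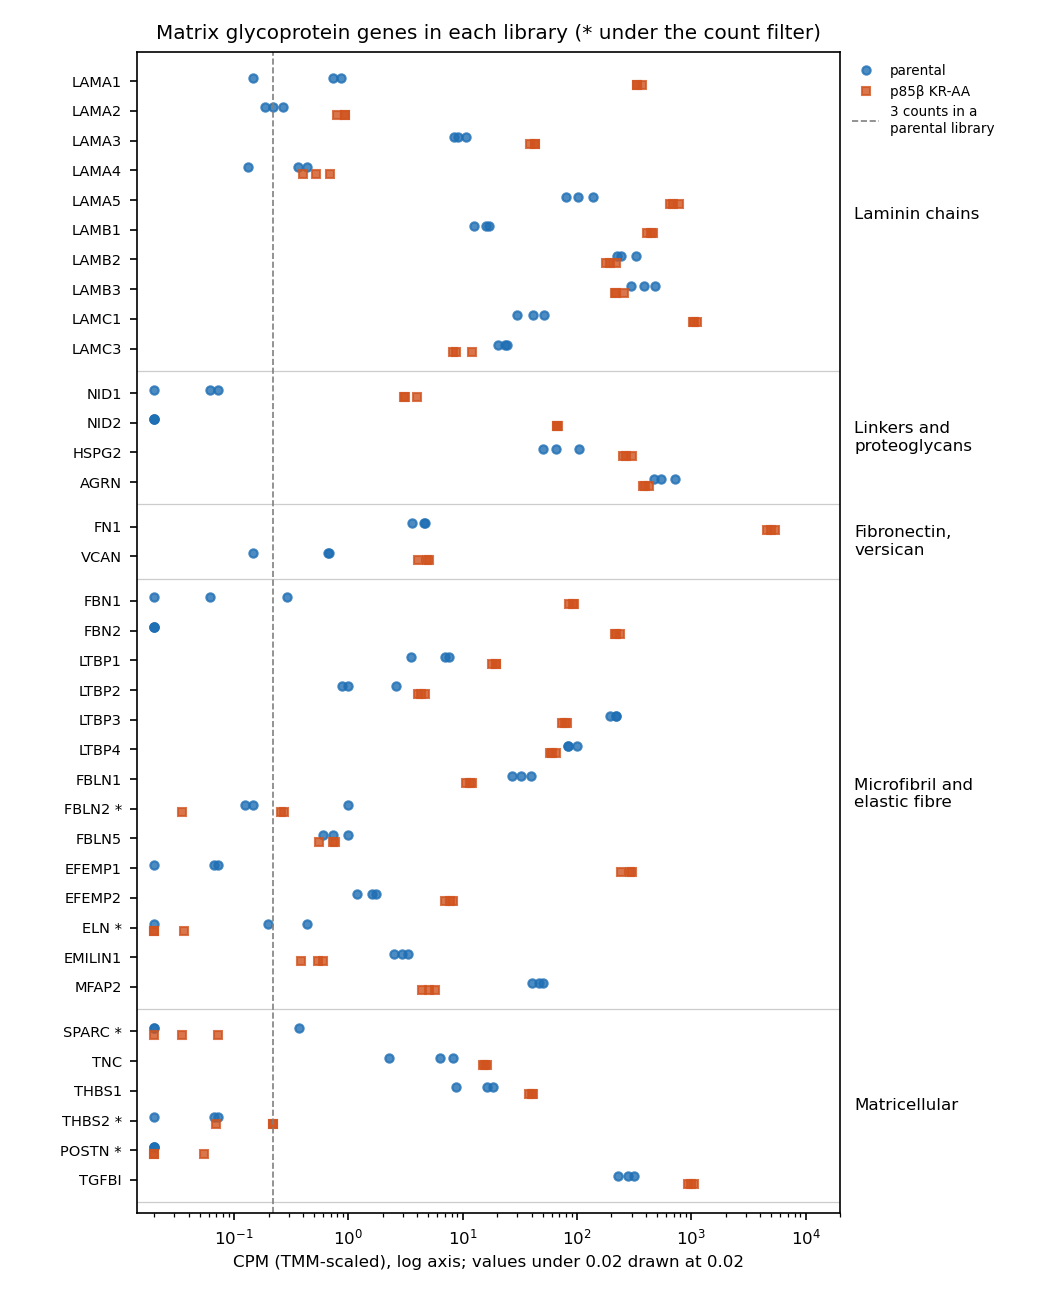
CPM of each of the 36 members in every library on a log axis, with parental libraries as circles and p85β KR-AA libraries as squares, grouped by role. FN1, FBN1, FBN2, NID2, EFEMP1 and LAMA1 sit far apart between the conditions, LAMB2, LAMB3, AGRN and LTBP4 lie close together, and the 5 members marked with an asterisk were under the count filter.

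FN1 (ENSG00000115414, chromosome 2, 216225163 to 216300796) encodes fibronectin, which binds integrins and seeds the deposition of other matrix proteins. Its counts were 71, 49 and 74 in the parental and 181723, 132172 and 148643 in the mutant libraries. In CPM this is 4.28 ± 0.62 against 4992 ± 408 (SD, n = 3 each), 1165-fold higher in the mutant cells (log2 fold change 10.18 ± 0.20, SE). FN1 was thereby the gene of rank 4 by CPM among all genes in the mutant cells and of rank 9596 in the parental cells, and of rank 114 and 12506 when CPM is divided by gene length. VCAN, the chondroitin sulfate proteoglycan versican, stayed low, with 0.664, 0.146 and 0.679 CPM in parental and 5.10, 4.84 and 4.08 CPM in mutant libraries. The VCAN ratio of 9.23 has a 95% counting interval of 6.07 to 14.7, which covers counting error only. With length and GC offsets the log2 fold change of FN1 was 8.63, while that of VCAN shrank from 3.19 to 0.28.

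The fibrillins, the rod-like proteins that polymerise into microfibrils, were close to absent in parental cells. FBN2 (ENSG00000138829, chromosome 5, 127593601 to 127994878) had no count in any parental library and 8034, 6205 and 6515 counts in the mutant libraries. FBN1 (ENSG00000166147, chromosome 15, 48700510 to 48937918) had 0, 4 and 1 counts in the parental and 3359, 2427 and 2565 in the mutant libraries. No value of one condition came near the other for either gene. FBN2 at 224 ± 11.5 CPM was at least 1026-fold higher than the floor of 3 counts per parental library. FBN1 at 89.9 ± 4.73 CPM was 810-fold higher by pooled counts (95% counting interval 347 to 2490), and its log2 fold change of 9.59 became 11.22 without parental replicate 2, which held 4 of its 5 parental counts. FBN2 shares its locus with SLC27A6 on the opposite strand, and how strand was treated in counting is not given in the sources used here. That neighbour had 13 to 30 counts in parental and 15 to 42 in mutant libraries.

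EFEMP1 (ENSG00000115380, chromosome 2, 56093102 to 56151274), or fibulin-3, a secreted protein related to the elastic fibre fibulins, showed the same on and off pattern, with 1, 1 and 0 counts against 11096, 8368 and 6707. Its mutant level was 280 ± 30.9 CPM. The ratio of pooled counts was 6340 (95% counting interval 1760 to 52400), and it was 1279 when the parental libraries were set at 3 counts each. EFEMP1 is 3024 bases long, so that it is among the shorter members, and its estimate with length and GC offsets, a log2 fold change of 11.12, remained of that order.

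NID2 (ENSG00000087303, chromosome 14, 52471527 to 52535777) and NID1 (ENSG00000116962, chromosome 1, 236139130 to 236228409) encode the nidogens, which join laminin to type IV collagen. NID2 had no parental count and 2518, 1916 and 1836 counts in the mutant libraries, at least 308.7-fold higher at 67.4 ± 1.09 CPM. NID1 reached only 115, 88 and 109 counts in the mutant libraries from 0, 1 and 1 in the parental ones. Its ratio of pooled counts was 75.6 (95% counting interval 20.8 to 627), and 15.5 with the parental libraries at 3 counts each. NID2 overlaps RTRAF on the opposite strand, which had 587 to 802 counts in the parental libraries, where NID2 had none, and 1660 to 2475 in the mutant libraries.

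Gene starts are shown for members with some of the largest differences. RefSeq promoter windows (GRCh38.p14, 250 bases before to 50 after the start) were at hand for 30 of the 36 members. Of the members with a single window, the 4 with the largest fold change or bound are printed as the 200 bases before the start, 5′ to 3′ on the gene's strand. Capitals mark GGGCGG, the core of the GC box, and TGACGTCA, the cAMP response element, each searched on both strands, so that GGGCGG also appears as CCGCCC. The windows lie on the minus strand at chr2:215436069-215436268 for FN1, chr5:128538246-128538445 for FBN2, chr15:48644971-48645170 for FBN1 and chr14:52069060-52069259 for NID2.
FN1: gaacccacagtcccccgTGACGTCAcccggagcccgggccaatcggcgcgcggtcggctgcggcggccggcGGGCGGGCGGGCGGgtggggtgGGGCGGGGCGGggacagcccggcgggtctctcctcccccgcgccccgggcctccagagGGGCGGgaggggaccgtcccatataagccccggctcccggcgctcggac
FBN2: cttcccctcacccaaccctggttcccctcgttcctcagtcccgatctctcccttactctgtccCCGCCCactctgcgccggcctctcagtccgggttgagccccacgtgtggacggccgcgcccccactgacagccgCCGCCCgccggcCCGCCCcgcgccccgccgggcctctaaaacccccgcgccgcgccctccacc
FBN1: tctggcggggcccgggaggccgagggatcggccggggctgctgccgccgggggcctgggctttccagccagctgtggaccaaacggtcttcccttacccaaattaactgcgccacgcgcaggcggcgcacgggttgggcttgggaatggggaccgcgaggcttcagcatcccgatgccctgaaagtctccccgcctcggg
NID2: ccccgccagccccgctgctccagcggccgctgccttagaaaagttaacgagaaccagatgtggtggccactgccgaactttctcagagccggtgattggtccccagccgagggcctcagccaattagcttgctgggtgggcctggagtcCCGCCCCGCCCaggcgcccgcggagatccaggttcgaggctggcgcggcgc
The printed FN1 stretch holds 6 GGGCGG and 1 TGACGTCA, FBN2 holds 3 GGGCGG, NID2 holds 2, and FBN1 holds neither. These 4 stretches are rich in CpG, with 29, 23, 19 and 17 CpG dinucleotides for FN1, FBN2, FBN1 and NID2. Over whole windows, the 17 windows of up-regulated members had a median of 30 CpG, the 22 windows of the other members 16 and all 35116 RefSeq windows 14. GGGCGG was in 71.8% of the 39 member windows against 45.0% of all windows, with 70.6% in those of up-regulated members and 72.7% in the others. TGACGTCA was in 5.13% of member windows (those of FN1 and LTBP1) against 1.85%, TGACTCA, an AP-1 site, in 10.3% against 4.95%, and TATAAA, the TATA box, in 7.69% against 11.5%. The matches are descriptions of letters and not of binding.

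Laminin chains separated into those that were higher in the mutant cells and those that were not. LAMA1 (ENSG00000101680, chromosome 18, 6941741 to 7117796), the alpha chain typical of embryonic basement membranes, had 11, 2 and 14 counts in parental and 12320, 9598 and 10163 in mutant libraries. Its mean was 0.580 ± 0.382 CPM in parental and 347 ± 20.3 CPM in mutant libraries, a log2 fold change of 9.17 ± 0.28 (SE). LAMB1 (ENSG00000091136, chromosome 7, 107564244 to 107643658), the widely used beta chain, was at 16.1, 12.5 and 17.0 CPM in parental and at 459, 447 and 414 CPM in mutant libraries, 28.95-fold higher. LAMC1 (ENSG00000135862, chromosome 1, 182992555 to 183114727), the gamma chain found in most laminins, was at 41.3, 29.7 and 51.7 CPM in parental and at 1048, 1027 and 1111 CPM in mutant libraries, 25.97-fold higher. These chains, 1 of each class, were the laminin genes with the largest differences. Their log2 fold changes were 7.56, 3.55 and 2.96 with length and GC offsets. LAMB1 overlaps DLD on the opposite strand, which had 167 to 237 counts in parental and 992 to 2090 in mutant libraries.

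LAMA5 (ENSG00000130702, chromosome 20, 60883011 to 60942368), the main alpha chain of adult epithelial basement membranes, was already present at 137, 79.4 and 103 CPM in the parental libraries and stood at 692, 650 and 774 CPM in the mutant libraries, 6.62-fold higher. Its log2 fold change was 2.73, 2.58 with length and GC offsets and 0.38 with the length offset alone. ADRM1 overlaps it on the opposite strand and went the other way, from 11423 to 12869 counts down to 3058 to 4039. LAMA3, the alpha chain of the epithelial anchoring laminin, went from 9.03, 8.38 and 10.6 CPM to 43.3, 42.7 and 38.4 CPM (log2 fold change 2.15), but the value was 0.40 with length and GC offsets and -0.15 with the length offset. LAMA2, a muscle and nerve chain, had 4, 3 and 3 parental and 34, 27 and 22 mutant counts, a ratio of 4.02 with a counting interval of 2.08 to 8.70, and its log2 fold change of 1.98 was -0.24 with both offsets. LAMA4, a vascular chain, overlapped between the conditions at 0.133, 0.364 and 0.432 CPM in parental and 0.518, 0.696 and 0.401 CPM in mutant libraries. The LAMA4 log2 fold change of 0.78 was -1.25 with both offsets and -0.90 with the length offset.

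The remaining chains were lower in the mutant libraries without passing the thresholds. LAMB3, the beta partner of LAMA3, was at 483, 296 and 384 CPM in parental and 220, 216 and 256 CPM in mutant libraries. LAMB2, the beta chain of synaptic and kidney laminins, was at 327, 226 and 241 CPM against 194, 180 and 219 CPM. LAMC3, a less common gamma chain, was at 24.3, 23.4 and 20.5 CPM against 8.78, 8.25 and 11.95 CPM. Their log2 fold changes were -0.75, -0.42 and -1.24, and scaling by library totals turned those of LAMB3 and LAMB2 to 0.17 and 0.50 but left LAMC3 at -0.31. With the length offset alone they were -1.72, -1.90 and -3.12, and all 3 passed the thresholds downward. Their values with length and GC offsets were -0.33, -0.30 and -1.27, and none passed. The median of all genes tested moves by 0.92 on the log2 scale when library totals replace TMM.

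Per length, the make-up of the alpha and beta chain classes shifted, a ratio within a library that scaling between libraries does not change. The chains differ in length, from 4305 bases for LAMB3 to 11426 for LAMA5, and the part of length in these shares was not tested. LAMB4 was added from the list of other matrix glycoproteins to complete the beta class. LAMA1 made up 0.552% ± 0.345 of the alpha chain signal (CPM per kilobase) in parental and 35.4% ± 0.718 in mutant libraries (SD, n = 3), while LAMA5 went from 89.9% ± 2.26 to 60.6% ± 1.13. LAMB1 went from 1.92% ± 0.289 to 46.4% ± 3.58 of the beta chains, LAMB3 from 64.5% ± 2.14 to 32.5% ± 2.21 and LAMB2 from 33.5% ± 2.21 to 21.1% ± 1.43. The libraries of the conditions did not overlap in any of these shares. Summed over a class, alpha chains went from 10.3 ± 2.59 to 102 ± 7.32 CPM per kilobase, whereas beta chains stood at 139 ± 31.2 and 165 ± 5.20, with overlapping libraries. These sums, unlike the shares, depend on the scaling between libraries. By library totals LAMB1, LAMB2 and LAMB3 had log2 fold changes of 5.77, 0.50 and 0.17.

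**Figure D2:**
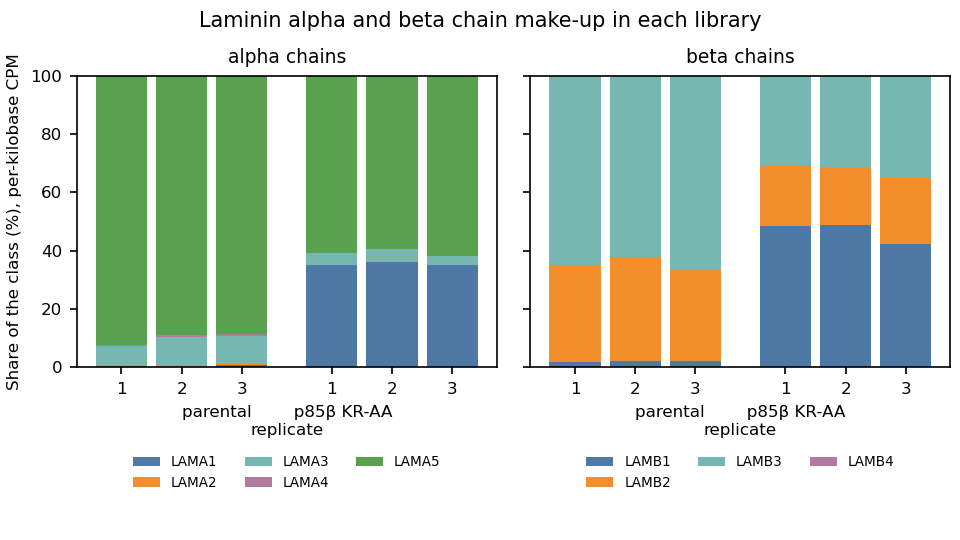
Share of each laminin alpha and beta chain within its class in every library, in percent of the summed CPM per kilobase of gene length. In mutant libraries LAMA1 (35.4% on average) and LAMB1 (46.4%) take shares that were 0.552% and 1.92% in parental libraries.

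The heparan sulfate proteoglycans differed from each other. HSPG2, or perlecan, lay between 50.3 and 105 CPM in parental and between 251 and 306 CPM in mutant libraries, 3.73-fold higher. The log2 fold change of 1.90 was 1.53 with length and GC offsets and -0.62 with length alone, HSPG2 being the longest member at 14341 bases and rich in GC at 64.5%. AGRN, or agrin, which links laminin to dystroglycan, stood at 724, 474 and 546 CPM in parental and 391, 376 and 427 CPM in mutant libraries. Its log2 fold change of -0.55 became 0.37 when scaled by library totals and -2.40, past the thresholds downward, with the length offset alone. The AGRN value with length and GC offsets was -0.26, not past the thresholds. In parental cells agrin was one of the highest members per length at 79.3 ± 17.6 CPM per kilobase, not separable from LAMB3 (90.1 ± 21.8) and TGFBI (101 ± 15.7). In mutant cells FN1 led at 567 ± 46.4 CPM per kilobase, followed by TGFBI at 366 ± 23.1, LAMC1 at 134 ± 5.503 and EFEMP1 at 92.4 ± 10.2. AGRN and LAMB3, at 54.3 ± 3.56 and 53.5 ± 5.14, did not differ beyond their spread.

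The other microfibril and elastic fibre genes went in both directions. MFAP2 (ENSG00000117122, chromosome 1, 17300997 to 17307127), a small glycoprotein of fibrillin microfibrils, held 694, 693 and 658 counts in parental and 163, 146 and 157 in mutant libraries. It was 8.99-fold lower in the mutant cells (log2 fold change -3.17 ± 0.18, SE) while both fibrillins were higher. MFAP2 is the shortest member at 1260 bases, and with length and GC offsets its log2 fold change was -1.43, outside the 3-fold threshold. EMILIN1, an elastin interface protein, was 5.75-fold lower at 2.53 to 3.35 against 0.383 to 0.600 CPM, and likewise -1.45 on the log2 scale with offsets. Both genes stayed negative under every alternative, although EMILIN1 (-1.57) was not past the threshold when scaled by library totals. EFEMP2, or fibulin-4, which is needed for elastic fibre assembly and overlaps MUS81 on the opposite strand, lay between 1.20 and 1.73 CPM in parental and 6.96 and 8.16 CPM in mutant libraries, and its log2 fold change of 2.33 was larger, 3.89, with the offsets.

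Latent TGF-β binding proteins hold the growth factor in the matrix, and they too were split. LTBP3 stood at 220, 220 and 196 CPM in parental and 81.7, 74.5 and 78.2 CPM in mutant libraries, 2.71-fold lower and under the threshold. LTBP4 was at 89.4 ± 9.18 CPM against 61.4 ± 3.90 CPM (log2 fold change -0.54, and 0.38 when scaled by library totals). With the length offset alone both passed the thresholds downward, at -2.48 for LTBP3 and -1.78 for LTBP4. Their values with length and GC offsets were -0.54 and 0.19, and neither passed. LTBP1 went the other way, from 3.495 to 7.65 CPM in parental to 18.2 to 19.7 CPM in mutant libraries. Its fold of 3.16 was the lowest of those over the threshold, while LTBP2 at 2.92-fold higher and FBLN1, or fibulin-1, at 2.90-fold lower lay just outside it. These calls rest on single libraries, since LTBP1 was not over the threshold without parental replicate 2 (log2 fold change 1.36), LTBP2 was over it without parental replicate 3 (2.17), and FBLN1 passed it downward without parental replicate 2 (-1.69) or 3 (-1.59). The log2 fold changes of LTBP1, LTBP2 and FBLN1 were 0.49, 0.875 and -0.71 with length and GC offsets. FBLN5 overlapped between the conditions under 1 CPM. FBLN2 and ELN, the elastin gene itself, did not pass the filter, with 1 to 15 and 0 to 6 counts per library. ELN had 3, 6 and 0 counts in parental and 0, 0 and 0.68 in mutant libraries.

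Among the matricellular genes TGFBI, a secreted integrin ligand induced by TGF-β, was abundant in both conditions at 315, 230 and 277 CPM in parental and 987, 933 and 1058 CPM in mutant libraries. It was 3.62-fold higher, and its log2 fold change of 1.86 was little changed at 2.01 with length and GC offsets. TNC (tenascin-C) and THBS1 (thrombospondin-1) were higher in all mutant libraries, by 2.80- and 2.75-fold, without passing the 3-fold threshold, which both passed without parental replicate 1 (log2 fold changes 1.84 and 1.66). The TNC value was 0.23 and the THBS1 value -0.69 with length and GC offsets, and they were -0.55 and -0.47 with length alone. THBS2, SPARC and POSTN, all typical stromal products, did not pass the filter. POSTN had 2 counts in 1 mutant library and none elsewhere, SPARC at most 6 counts and THBS2 at most 8.

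The position of the members against gene length is shown over all genes tested. Of the 24 tested members over 4000 bases, 14 were up and 0 down, where 50.9% and 3.97% of all genes of that length were, with a median log2 fold change of 1.94 against 1.65 for those 4956 genes. Of the 7 shorter ones, 3 were up and 2 down, against 18.7% and 23.7% of the shorter genes, with a median of -0.17 against -0.26. The median of the members thus lay near that of genes of like length, while FN1, FBN1, FBN2, LAMA1, NID2 and EFEMP1 stood several log2 units above it. With length and GC offsets the members' median was 0.40 and that of all genes -0.05. In that fit 13.9% of all genes were up and 10.2% down, and 12 members were up and 0 down. The 12 were FN1, FBN1, FBN2, NID1, NID2, LAMA1, LAMA5, LAMB1, LAMC1, EFEMP1, EFEMP2 and TGFBI, whereas LAMA2, LAMA3, HSPG2, VCAN, LTBP1, EMILIN1 and MFAP2 were no longer past the thresholds.

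**Figure D3:**
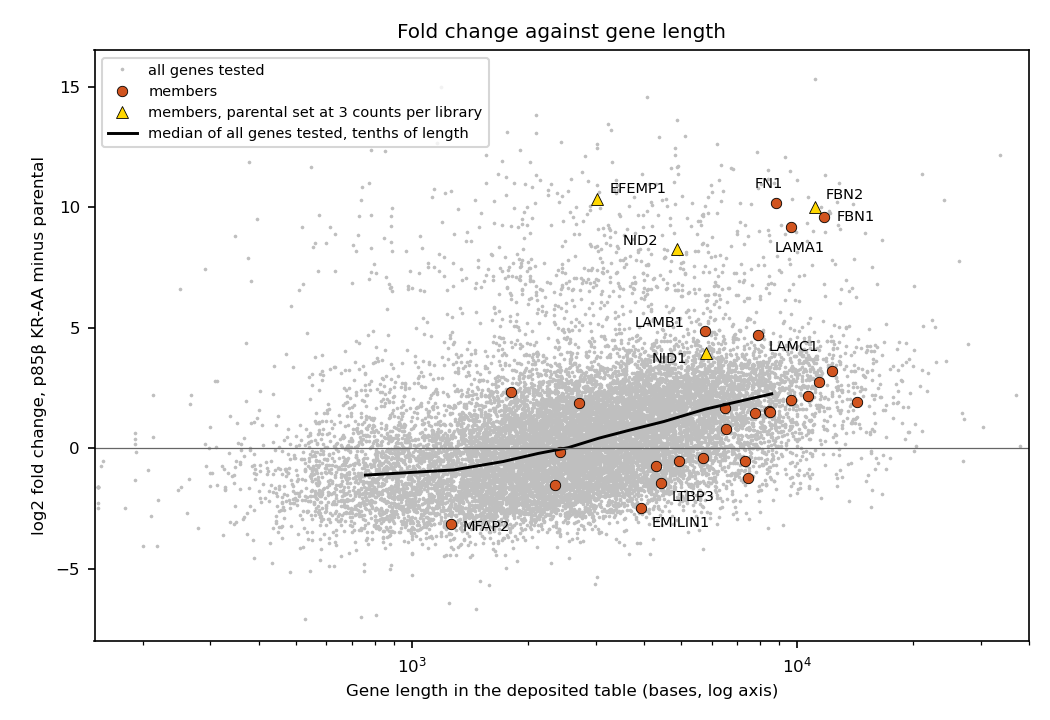
Log2 fold change (p85β KR-AA minus parental) against gene length in bases on a log axis, with all genes tested in grey, members as circles, members with at most 3 counts per parental library as triangles at the value with 3 counts, and the median of all genes in 10 bins of length as a line. LAMA2, LAMA3, LAMA5, HSPG2 and LTBP1 lie near the line, LAMB2, LAMB3, LAMC3, AGRN, LTBP3 and LTBP4 lie below it, and FN1 (10.18) and FBN1 (9.59) lie far above it. Grey points are fitted estimates, which for genes without parental counts depend on the prior count.

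**Figure D4:**
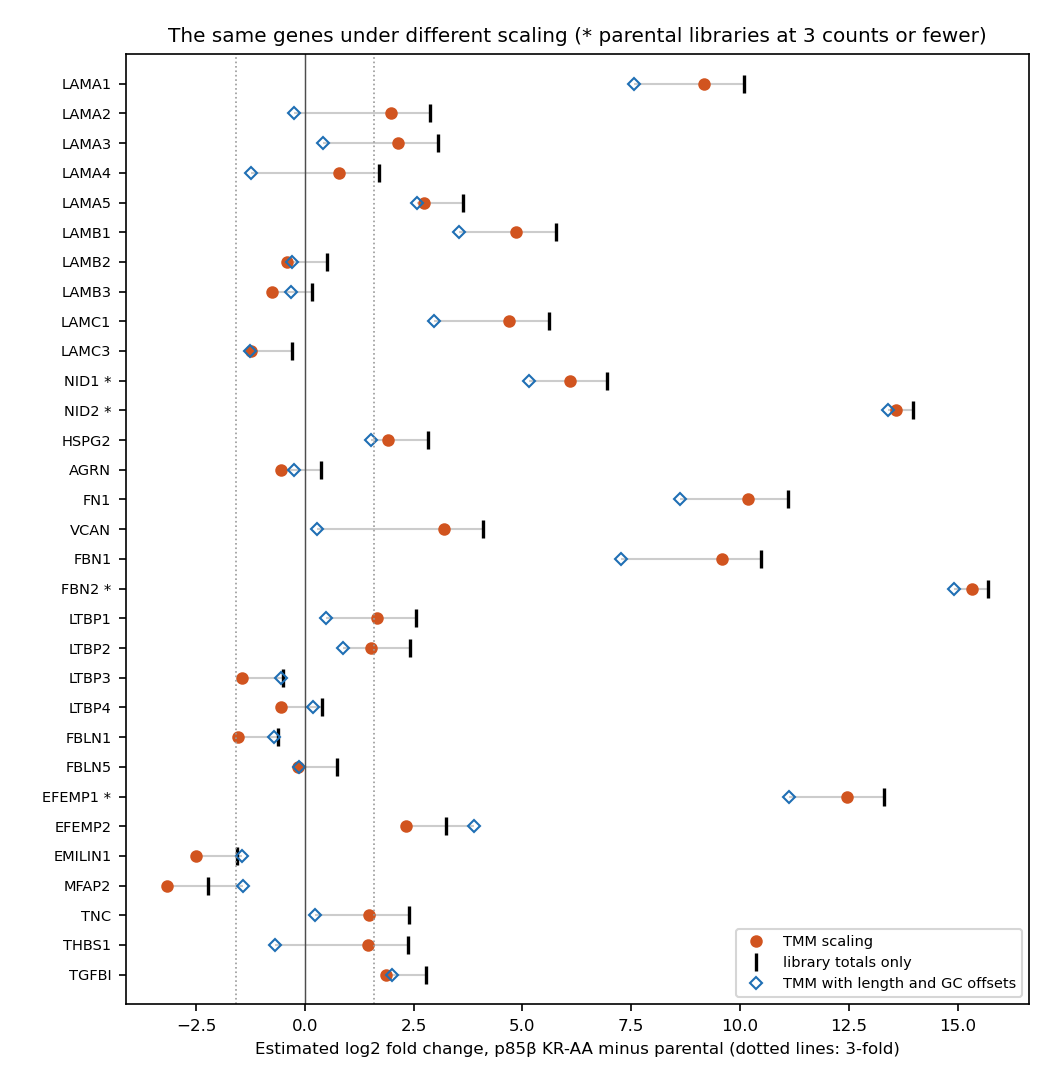
Estimated log2 fold change of the 31 tested members with TMM scaling, with scaling by library totals and with length and GC offsets, with dotted lines at 3-fold and asterisks on the 4 genes with at most 3 counts per parental library, whose estimates depend on the prior count. Totals place 26 members above 0 against 21 with TMM, the difference being LAMB2, LAMB3, AGRN, LTBP4 and FBLN5.

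Scaling by library totals called 43.9% of all genes up and 6.06% down, and 21 members up and 1 down, the added ones being LAMA4, LTBP2, TNC and THBS1. DESeq2 called 26.2% of all genes up and 19.3% down, and 15 members up and 3 down, without LAMA2 and LTBP1 and with FBLN1.

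Within each condition, replicate 2 was most often the lowest library for these genes. Of the 20 members over 1 CPM in every parental library, 14 (70.0%) were lowest in parental replicate 2, against 52.8% of tested genes over 4000 bases and 28.5% of shorter ones. In the mutant cells, replicate 2 was lowest for 18 of 27 members (66.7%), against 30.01% of tested genes over 4000 bases and 41.4% of shorter ones. The median coefficient of variation was 19.1% over these 20 members in parental and 6.43% over these 27 in mutant libraries, which are different sets of genes. All genes tested showed such a gap too, with 15.1% and 8.72% for the genes of at most 4000 bases, and 21.1% in parental libraries for the longer ones. Its relation to RNA quality was not tested.

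The surroundings of these proteins were read from lists of receptors, collagens, cross-linking enzymes and other glycoproteins, with p-values adjusted over all genes tested in edgeR. Of 19 tested matrix receptors, 8 rose and 1 fell, where 28.6% of all genes rose and 17.6% fell, and with the length offset alone 3 passed in each direction. ITGA6, the alpha subunit of the epithelial laminin receptors, rose from 20.3 ± 3.41 to 243 ± 36.7 CPM (log2 fold change 3.59, adjusted p = 5.36e-09, and 2.09 with length and GC offsets). Its partners ITGB1 (1.67, adjusted p = 9.21e-06, but -0.10 with offsets) and ITGB4 (0.27, adjusted p = 0.135, and 0.60 with offsets) differed less. ITGA3, which pairs with ITGB1 to bind LAMA3 and LAMA5 laminins, was at -0.82 (adjusted p = 0.000175, under the 3-fold threshold). The ITGA3 value was -0.06 with offsets and 0.10 when scaled by library totals. ITGA2 (3.27, adjusted p = 6.44e-08) and ITGAV (3.15, adjusted p = 5.4e-08), subunits of collagen and fibronectin receptors, rose but stood at 0.56 and 0.53 with offsets. DAG1, dystroglycan, had 0.97 (adjusted p = 0.00102), 0.50 with offsets and -0.44 with length alone. BCAM, a receptor for LAMA5, fell by 2.05 on the log2 scale (adjusted p = 6.07e-08). It was at -0.53 with offsets and, when scaled by library totals, at -1.12 and no longer past the threshold.

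Of the 10 basement membrane collagen genes, 7 rose and 0 fell, against 28.6% and 17.6% of all genes and 50.9% and 3.97% of those over 4000 bases. Their median length was 6563 bases, and with the length offset alone 4 were up and 1 down. COL4A6 went from 0.407 ± 0.343 to 144 ± 8.06 CPM (log2 fold change 8.40, adjusted p = 3.53e-10) and COL4A5, its neighbour and network partner, from 1.92 ± 0.721 to 91.9 ± 5.64 CPM (5.56, adjusted p = 1.96e-09). COL7A1, the anchoring fibril collagen, rose by 2.79 (adjusted p = 6.65e-08). The log2 fold changes of these 3 were 7.68, 4.33 and 2.72 with length and GC offsets and 6.68, 3.89 and 0.65 with length alone. COL4A1 was up (2.84, adjusted p = 4.13e-07) while COL4A2, which shares its promoter region and trimer, was below the threshold at 0.99. With length and GC offsets COL4A1 was at 2.21 and COL4A2 at 1.05. With length alone they were at 1.15, under the 3-fold threshold, and -0.70.

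Of 11 tested genes for cross-linking and fibre assembly, 4 rose and 2 fell, and nothing is read from these counts against the 28.6% and 17.6% of all genes. PXDN, the peroxidase that cross-links type IV collagen, rose by 4.60 (adjusted p = 1.39e-09) and FKBP10, a collagen and elastin chaperone, by 5.34 (adjusted p = 1.72e-10). SERPINH1, the collagen chaperone HSP47, fell by 1.81 (adjusted p = 5.64e-08, -0.71 with offsets, and -0.89 and no call when scaled by library totals). LOXL4, a lysyl oxidase named after its values were seen, fell by 3.40 (adjusted p = 5.99e-07). Of the 3 tested TGF-β ligands and anchors, TGFB2 rose by 4.18 (adjusted p = 1.19e-08) and TGFB1 fell by 2.15 on the log2 scale (adjusted p = 1.66e-08, -0.88 with offsets), and TGFB1 was no longer past the threshold when scaled by library totals, where the change was -1.22. Among 29 tested other matrix glycoproteins 16 rose and 2 fell (EMILIN2 and HMCN2), against 28.6% and 17.6% of all genes, while the length offset alone gave 12 up and 6 down. The HMCN2 value of -1.75 was -0.82 and no longer past the threshold when scaled by library totals. SPP1 (osteopontin) had 2, 1 and 1 counts in parental and 18737, 13172 and 8459 in mutant libraries, and SPOCK1 (testican-1) 0, 0 and 1 against 4706, 3905 and 3237 (adjusted p = 7.81e-11 and 4.84e-11). SMOC1, a SPARC relative of basement membranes, rose by 7.82 (adjusted p = 2.03e-10) and CCN2, or CTGF, by 6.46 (adjusted p = 4.84e-11).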

How the data were processed

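RNA-seq of 3 parental and 3 p85β KR-AA libraries was used. Total RNA was extracted with TRIzol and TruSeq RNA libraries were sequenced paired-end, with trimming by SeqPrep and Sickle. The submitters' processing notes name HISAT2 2.1.0, RSEM 1.3.1, DESeq2 1.24.0 and hg18. Estimated counts by Ensembl gene, not normalized, and a gene length were deposited by the authors. How strand was counted is not given in the sources used here. The estimated counts were rounded to whole numbers before the fit, as the design provided for. edgeR 4.0.16 in R 4.3.3 was run on all genes (filterByExpr, minimum count 10, minimum total 15, TMM, quasi-likelihood test, Benjamini-Hochberg adjustment, no covariate), and tested on simulated data. SE was derived from the fold change and F statistic. The study's thresholds were used, a fold of 3 and an adjusted p of 0.01. Lower bounds use 3 counts per library.

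The members and lists were chosen with earlier results of these data known. Every member is accounted for, and values in each library are given for all laminin chains and for the 12 members highest per kilobase or with the 12 largest changes. Of the other lists, up to 4 genes each with the largest change (mean log2 CPM 3 or more) and the laminin receptors were named, and COL4A1, COL4A2, LOXL4, EMILIN2 and HMCN2 after their values were seen. Of 171 listed genes, 170 were matched. Symbols, positions and GC content came from GENCODE 44 lifted to GRCh37, whose build may not be that of the counts. Per-kilobase values divide CPM by the deposited length, and the make-up of the gamma chain class is not reported here. Offsets for length and GC content were splines with 5 degrees of freedom per library (MASS), which remove any relation with length or GC whatever its source. Alternatives were DESeq2 1.42.0, scaling by library totals, other filters and thresholds, the replicate number as a block and each library left out.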

Additional observations from a re-analysis of the deposited data

How the results depend on the processing

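Without 1 library at a time, 16 to 19 members were up, 2 to 3 down, and the members' median log2 fold change was 1.65 to 1.96. DESeq2 gave 15 up and 3 down. Scaling by library totals gave 7052 genes up and 973 down and 1 member down, medians of 2.78 (members) and 1.241 (all genes), and 0 receptors, 1 cross-linking gene and 1 other glycoprotein down, and 2 TGF-β genes up and 0 down. A minimum of 10 counts in every library left 2898 genes up and an all-gene median of 0.10, and no filter a median of 0.81. A fold of 2 at 0.05 gave 4289 genes and 5 members down, and no fold threshold 5246 and 8.

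The length offset gave 2997 genes up, 11 members up and 8 down, medians of -0.18 (members) and -0.018 (all genes), 3 receptors up and 3 down, 4 basement membrane collagens up and 1 down, and 6 other glycoproteins down. Of the members past the thresholds in the main fit, it reversed LAMA2 (-0.19), LAMA3 (-0.15), HSPG2 (-0.62) and LTBP1 (-0.017). Among those not past them, LAMA4 (-0.90), LTBP2 (-0.50), TNC (-0.55) and THBS1 (-0.47) also turned negative. With length and GC offsets 2209 genes were up and 1615 down and 0 members down, with medians of 0.40 and -0.052, and LAMA2 was at -0.24. Adding the replicate block to these offsets gave 2138 up, 1590 down, 0 members down, medians of 0.40 and -0.045, and LAMA2 at -0.26.

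The replicate numbers did not pair the libraries (correlations of -0.14, 0.12 and -0.04 between same-numbered libraries). The replicate block alone gave 19 members up and 2 down, with TNC and LTBP2 added. Its prior degrees of freedom were infinite, so these calls rest on a variance pooled over genes. Which offset is right was not tested. Genes near 3 counts are limited by depth, and length, clone and genotype cannot be told apart with these libraries.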
